A study of Mus musculus with 18 samples.

Results

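The 10 genes of the core circadian clock (*Arntl*, *Clock*, *Nr1d1*, *Nr1d2*, *Rora*, *Per1*, *Per2*, *Per3*, *Cry1*, and *Cry2*) were examined in the open chromatin of liver macrophages (LMs, called KC in the titles of the libraries). The genes were chosen by name, and an open region was assigned to a gene when its midpoint lay in the gene body or within 10 kb of either end. By this rule the 10 genes held 88 of the 69499 open regions, and no region was assigned to more than 1 of them. The regions came from fast-ATAC-Seq, which uses a transposase to tag accessible DNA, on LMs of male C57BL/6J mice with floxed alleles that were all fed a high-fat, high-sucrose diet (HFHSD) for 4 weeks. Control mice received a virus carrying GFP, and *Reverb*-hDKO and *Reverb/Scap*-hTKO mice (ReverbhDKO and Reverb/ScaphTKO in the labels) received the same virus carrying Cre. Both were driven by the TBG promoter, which is active in hepatocytes, so that *Nr1d1* and *Nr1d2*, and in the triple knockout also *Scap*, were deleted in hepatocytes and not in the LMs. Each genotype was sampled at ZT10 and ZT22 with 3 replicates, which gives 18 libraries in 6 groups.

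A single list of regions for all 18 libraries was analysed, and position is the only information in it. Without counts or signal, the depth of a library is unknown, no spread between replicates exists, and no gene could be compared between genotypes or times. The deletion of the REV-ERB genes could not be checked either, since it was made in hepatocytes and the libraries are of LMs. Of 10 genes typical of LMs, 6 had an annotated start with an open region within 1000 bp (an open start), and *Csf1r*, *Lyz2*, *Marco*, and *Vsig4* did not. The same was seen for 9 of 10 hepatocyte genes, 8 of 10 endothelial genes, 4 of 10 stellate cell genes, and 2 of 10 genes of neurons and muscle, beside 57% of all protein-coding genes, so the share of the LM genes was near that of all genes. The part of other liver cells in the regions described here was not tested.

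The mammalian clock is a feedback loop of transcription. BMAL1, encoded by *Arntl*, and CLOCK bind together to E-boxes and activate the *Per* and *Cry* genes, whose proteins return to the nucleus and inhibit them. In a second loop, the nuclear receptors REV-ERBα (*Nr1d1*) and REV-ERBβ (*Nr1d2*) repress and RORα (*Rora*) activates *Arntl* and other genes through a shared DNA element, the RORE. The clock runs in macrophages as it does in hepatocytes, and in both it times the expression of metabolic and inflammatory genes.

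All 10 clock genes had an open start, as did 57% of 22380 protein-coding genes. Among genes of similar length (at most 20% shorter or 25% longer) the share was 68.4% to 75.2% for 8 of the 10, 55.2% for *Nr1d1*, the shortest, and 39.7% for *Rora*, the longest. Of all protein-coding genes, 74.4% had at least 1 region in the gene or within 10 kb. The sequences of 13 open regions are given here, because they hold the clock motifs nearest to the starts of these genes or the motifs that stand together in an intron. They were read from NCBIM37, the assembly that mm9 is made from, on the strand of the gene, and annotated exon bases were left off. Capitals mark matches, on either strand, to the E-box (CACGTG), the E′-box (CACGTT), the D-box (TTANGTAA, bound by DBP, TEF, HLF, and NFIL3), and the core of the RORE (TAGGTCA). The first sequences are those of the activators, with the largest region of *Arntl*, in intron 2, and the region of *Clock* in intron 1.
*Arntl*, chr7:120394311-120394575, plus strand: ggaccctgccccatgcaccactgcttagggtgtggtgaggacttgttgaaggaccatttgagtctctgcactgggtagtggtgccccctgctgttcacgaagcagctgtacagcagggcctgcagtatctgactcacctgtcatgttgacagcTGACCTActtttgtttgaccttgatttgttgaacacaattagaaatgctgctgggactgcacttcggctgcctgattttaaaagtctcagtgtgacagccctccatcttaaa
*Clock*, chr5:76732946-76733184, minus strand: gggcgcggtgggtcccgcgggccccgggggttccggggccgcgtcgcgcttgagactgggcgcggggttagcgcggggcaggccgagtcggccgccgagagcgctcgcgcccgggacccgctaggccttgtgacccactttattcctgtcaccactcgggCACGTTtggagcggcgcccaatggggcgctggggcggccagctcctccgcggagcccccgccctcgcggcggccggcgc
The REV-ERB genes follow, with the region upstream of *Nr1d1*, the region in its intron 1, and the region in intron 1 of *Nr1d2*. Both introns held an E-box followed by a D-box, 73 bp apart in *Nr1d1* and 69 bp apart in *Nr1d2*.
*Nr1d1*, chr11:98636711-98636912, minus strand: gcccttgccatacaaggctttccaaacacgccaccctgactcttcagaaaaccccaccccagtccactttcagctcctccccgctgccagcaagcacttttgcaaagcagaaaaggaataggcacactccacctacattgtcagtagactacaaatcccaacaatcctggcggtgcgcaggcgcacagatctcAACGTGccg
*Nr1d1*, chr11:98635271-98635540, minus strand: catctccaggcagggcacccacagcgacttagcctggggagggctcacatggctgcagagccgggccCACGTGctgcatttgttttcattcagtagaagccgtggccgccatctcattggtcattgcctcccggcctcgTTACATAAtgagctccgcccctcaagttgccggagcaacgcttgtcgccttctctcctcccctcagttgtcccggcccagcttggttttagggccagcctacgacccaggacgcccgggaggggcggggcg
*Nr1d2*, chr14:19071044-19071251, minus strand: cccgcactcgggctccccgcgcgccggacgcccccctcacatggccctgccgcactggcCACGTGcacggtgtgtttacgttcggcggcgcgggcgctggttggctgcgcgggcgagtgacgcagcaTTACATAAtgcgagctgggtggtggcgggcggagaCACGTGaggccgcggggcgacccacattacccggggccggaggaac
In the *Per* genes, the regions upstream of the first start and of the second start of *Per1* each held an E-box. The regions upstream of *Per2* and *Per3* held D-boxes, of which *Per3* had a pair 47 bp apart.
*Per1*, chr11:68908365-68908550, plus strand: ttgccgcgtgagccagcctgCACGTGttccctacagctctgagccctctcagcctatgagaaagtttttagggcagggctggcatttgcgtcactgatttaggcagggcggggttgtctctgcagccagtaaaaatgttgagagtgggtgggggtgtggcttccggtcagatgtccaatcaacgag
*Per1*, chr11:68912280-68912449, plus strand: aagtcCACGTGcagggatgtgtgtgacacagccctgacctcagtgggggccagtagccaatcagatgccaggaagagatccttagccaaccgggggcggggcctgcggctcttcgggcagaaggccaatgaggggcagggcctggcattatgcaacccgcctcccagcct
*Per2*, chr1:93355926-93356161, minus strand: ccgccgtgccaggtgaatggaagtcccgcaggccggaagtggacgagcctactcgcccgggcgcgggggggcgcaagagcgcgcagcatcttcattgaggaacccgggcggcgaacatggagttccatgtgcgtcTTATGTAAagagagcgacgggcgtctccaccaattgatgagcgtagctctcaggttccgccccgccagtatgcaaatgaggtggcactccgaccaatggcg
*Per3*, chr4:150418894-150419045, minus strand: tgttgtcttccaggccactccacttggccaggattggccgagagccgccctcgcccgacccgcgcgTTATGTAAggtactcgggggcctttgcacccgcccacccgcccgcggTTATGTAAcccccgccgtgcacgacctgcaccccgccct
In the *Cry* genes, the regions upstream of the starts of *Cry1* and *Cry2* held an E′-box, with an E-box 19 bp from it in *Cry1*. A region in intron 1 of *Cry1* held a pair of RORE cores 51 bp apart, and a region in intron 3 of *Cry2* a pair of E-boxes 53 bp apart.
*Cry1*, chr10:84647804-84647984, minus strand: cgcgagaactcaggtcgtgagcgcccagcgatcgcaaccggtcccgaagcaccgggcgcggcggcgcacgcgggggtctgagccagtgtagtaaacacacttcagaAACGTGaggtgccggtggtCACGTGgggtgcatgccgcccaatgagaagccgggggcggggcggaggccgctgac
*Cry1*, chr10:84624637-84624804, minus strand: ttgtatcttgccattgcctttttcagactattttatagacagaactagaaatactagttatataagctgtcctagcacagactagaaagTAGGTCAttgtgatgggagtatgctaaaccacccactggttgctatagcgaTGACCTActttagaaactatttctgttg
*Cry2*, chr2:92274299-92274460, minus strand: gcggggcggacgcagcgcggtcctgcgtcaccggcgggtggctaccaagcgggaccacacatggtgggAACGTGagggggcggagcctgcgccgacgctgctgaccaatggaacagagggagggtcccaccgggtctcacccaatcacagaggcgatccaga
*Cry2*, chr2:92263979-92264222, minus strand: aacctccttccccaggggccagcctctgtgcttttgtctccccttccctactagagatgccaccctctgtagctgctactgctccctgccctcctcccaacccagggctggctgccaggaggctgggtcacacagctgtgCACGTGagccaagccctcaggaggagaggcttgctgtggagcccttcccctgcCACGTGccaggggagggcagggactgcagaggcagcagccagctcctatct

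The first question was how many open regions each clock gene holds for its length. For each gene, the number of regions was set beside that of the protein-coding genes that were at most 20% shorter or 25% longer, and the share of these genes with fewer regions is given. The medians of the 10 sets of similar genes add up to 33 regions, against the 88 regions of the clock genes. These are unlike measures, since a sum of medians is not a total. *Rora* alone held 25 of the 88, against a median of 5, and 16 of the 88 were nearest to the coding start of a neighbor. More regions than 75% of similar genes were found at 6 of the 10 clock genes (*Per1*, *Per2*, *Cry2*, *Rora*, *Nr1d1*, and *Arntl*), and at 20.6% of all protein-coding genes. More regions than 50% of similar genes were found at 9 of the 10, the exception being *Nr1d2*, and at 41.1% of all protein-coding genes. The median share was 78.2% over the clock genes, with a range from 42.0% to 98.6%, and 40.2% over all protein-coding genes.

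**Figure D1:**
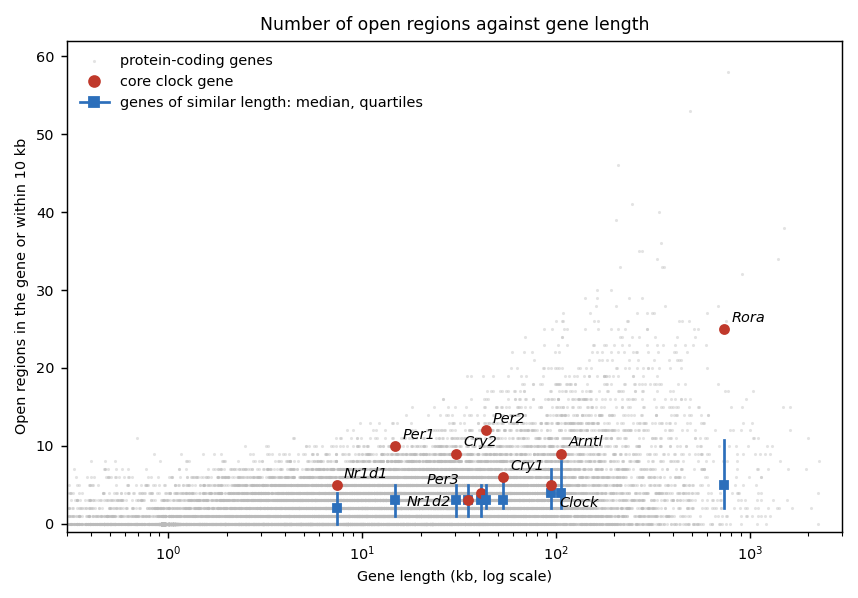
Number of open regions in the gene or within 10 kb of it (vertical axis) against gene length in kb on a log scale (horizontal axis), with protein-coding genes in gray, clock genes in red, and the median and quartiles of the genes of similar length in blue. *Per1* with 10, *Per2* with 12, *Cry2* with 9, and *Rora* with 25 regions lie above the blue quartiles, and *Nr1d2* with 3 regions lies on its median.

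*Arntl* (ENSMUSG00000055116.6, chr7:120350979-120457636, plus strand, 106658 bp) encodes BMAL1, the partner of CLOCK. It had 9 open regions, more than 76.6% of 1210 genes of similar length, whose median was 4. A region of 197 bp lay upstream of its only start, with its midpoint at −113 bp and its edge 15 bp from the start. The other 8 lay in introns, of which 6 were in intron 2, from 32551 to 60256 bp downstream of the start. The largest, of 265 bp, was among these 6, at 43464 bp. None of the regions of *Arntl* touched an annotated exon.

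*Clock* (ENSMUSG00000029238.7, chr5:76639992-76733817, minus strand, 93826 bp) encodes the DNA-binding partner of BMAL1. Its 5 regions exceeded the number at 52.5% of 1335 similar genes, whose median was also 4. Where the regions of *Arntl* were spread over introns, those of *Clock* crowded around the start. They lay at −1013, −87, 104, and 752 bp, and 4 of the 5 had a base within 1000 bp of an annotated start. The region at −87 bp, of 221 bp, reached over the first base of the gene, and the region at 104 bp was mostly exonic. The remaining region, of 232 bp, lay 15148 bp downstream in intron 2.

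*Nr1d1* (ENSMUSG00000020889.10, chr11:98629246-98636647, minus strand, 7402 bp) encodes REV-ERBα and is the shortest of the 10 genes. It had 5 regions, more than 79.8% of 1948 similar genes, whose median was 2. Only 1 of them, of 270 bp at 1241 bp in intron 1, was in the gene body, and counted in the body alone *Nr1d1* exceeded 54.7% of similar genes. The region upstream of the start was 202 bp wide at −164 bp. The largest, of 272 bp, lay 8217 bp upstream, and a pair of regions of 151 bp at 7830 and 8418 bp lay inside *Thra*, the thyroid hormone receptor gene that meets *Nr1d1* at its 3′ end.

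*Nr1d2* (ENSMUSG00000021775.9, chr14:19036568-19071641, minus strand, 35074 bp) encodes REV-ERBβ, which shares the repressor function of REV-ERBα. It had 3 regions, more than 42.0% of 2303 similar genes, and this equals their median. The regions were at −110, 493, and 17787 bp and were 195, 208, and 210 bp wide. The REV-ERB genes thus had a region just upstream of the start and another in intron 1, and differed in the number beyond these. The start of *Gm7084*, at −3812 bp in the window of *Nr1d2*, had no region of its own.

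*Rora* (ENSMUSG00000032238.10, chr9:68501593-69236053, plus strand, 734461 bp) encodes RORα, the activator that competes with the REV-ERBs. It had 25 regions, the most of the 10 genes, and more than 93.6% of the 78 genes of similar length, whose median was 5 (quartiles 2 and 10.75). An open start was found at 39.7% of these very long genes, and among those with an open start *Rora* exceeded 87.1%. Of its regions, 22 lay in introns, and 14 of these in intron 1. The start region, of 251 bp, was at −68 bp and overlapped the first base. A region at 2599 bp was followed by 157905 bp without a region, and the rest were spread from 160655 to 714601 bp. An exonic region of 241 bp at 636107 bp lay 211 bp downstream of the start of the transcript *Rora*-002. The largest, of 268 bp, lay in intron 1 at 380639 bp. The last region of the window, at 744237 bp, lay at the start of the neighboring gene *Narg2*.

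*Per1* (ENSMUSG00000020893.11, chr11:68908719-68923462, plus strand, 14744 bp) encodes a repressor of CLOCK-BMAL1 that also responds quickly to outside signals. It had 10 regions, more than 98.6% of 2487 similar genes and the highest share of the 10 clock genes, against a median of 3. In the gene body there were 4, more than in 92.8% of similar genes. The first start of *Per1* had regions at −261 bp (186 bp wide) and −64 bp (151 bp wide). The start of the transcript *Per1*-001, at 3731 bp, had a region of 174 bp at 3647 bp, and the start of *Per1*-005, at 4935 bp, had another of 174 bp at 4815 bp. Separate open regions thus lay at 3 groups of starts of this gene. The largest region of all 88, of 286 bp, lay between them at 1963 bp. Of the 6 regions outside the gene, those at −6664 and −6182 bp lay at the start of *Vamp2* and those at 22748 and 23760 bp were closest to *Hes7*, so that 6 of the 10 regions had *Per1* as their nearest gene start.

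*Per2* (ENSMUSG00000055866.7, chr1:93312561-93355907, minus strand, 43347 bp) encodes a PER repressor whose loss disturbs the daily rhythm of mice. It had 12 regions, more than 96.8% of 2084 similar genes, and 9 in the gene body, more than 97.6%. The medians of the similar genes were 3 and 2. Only the region at −136 bp, of 236 bp and the largest of the gene, was within 1000 bp of a start. The 9 regions in the gene were all intronic by midpoint, from 2644 to 30500 bp, and those between 13035 and 22852 bp were 183 to 235 bp wide. Those at 19275 and 23712 bp also held 89 and 44 exonic bases. A pair at 45995 and 46517 bp lay at the start of *Hes6*.

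*Per3* (ENSMUSG00000028957.6, chr4:150377761-150418774, minus strand, 41014 bp) encodes a PER protein that the clock can run without. It had 4 regions, more than 55.0% of 2141 similar genes, and 1 in the gene body, more than 27.7%, the lowest share of the 10 genes by this count. The regions upstream of the start were at −195 and −701 bp. All 4 regions were 151 or 152 bp wide, so all lay within 1 bp of the commonest width of the list. The start of *Uts2*, also in the window, had no region, and the region at −6760 bp lay in *Vamp3*. The 3 *Per* genes therefore differed in both number and width, with 10 and 12 regions of up to 286 and 236 bp at *Per1* and *Per2*.

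*Cry1* (ENSMUSG00000020038.9, chr10:84594447-84647799, minus strand, 53353 bp) encodes the stronger of the CRY repressors. It had 6 regions, more than 72.9% of 1885 similar genes, whose median was 3. The regions at −95 bp (181 bp wide) and −446 bp (207 bp wide) lay upstream of the start, and a region of 213 bp lay at −5143 bp. In intron 1 there was a region of 217 bp, the largest of the gene, at 1179 bp and another of 168 bp at 23078 bp. A region at 56906 bp lay at the start of *Mterfd3*. None of the 6 was 151 bp wide.

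*Cry2* (ENSMUSG00000068742.5, chr2:92243803-92274200, minus strand, 30398 bp) encodes the other CRY repressor. It had 9 regions, more than 93.6% of 2445 similar genes, whose median was 3. Of these, 5 lay in introns, from 1411 to 12084 bp, more than in 89.7% of similar genes. The start had a region of 162 bp at −179 bp, and the start of the transcript *Cry2*-004, at 1651 bp, a region of 151 bp at 1411 bp. The largest, of 258 bp, lay in intron 5 at 12084 bp, and the region of 244 bp at 10099 bp held the pair of E-boxes. The regions downstream of the gene, at 31000 and 38889 bp, were closest to the start of *Mapk8ip1*.

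**Figure D2:**
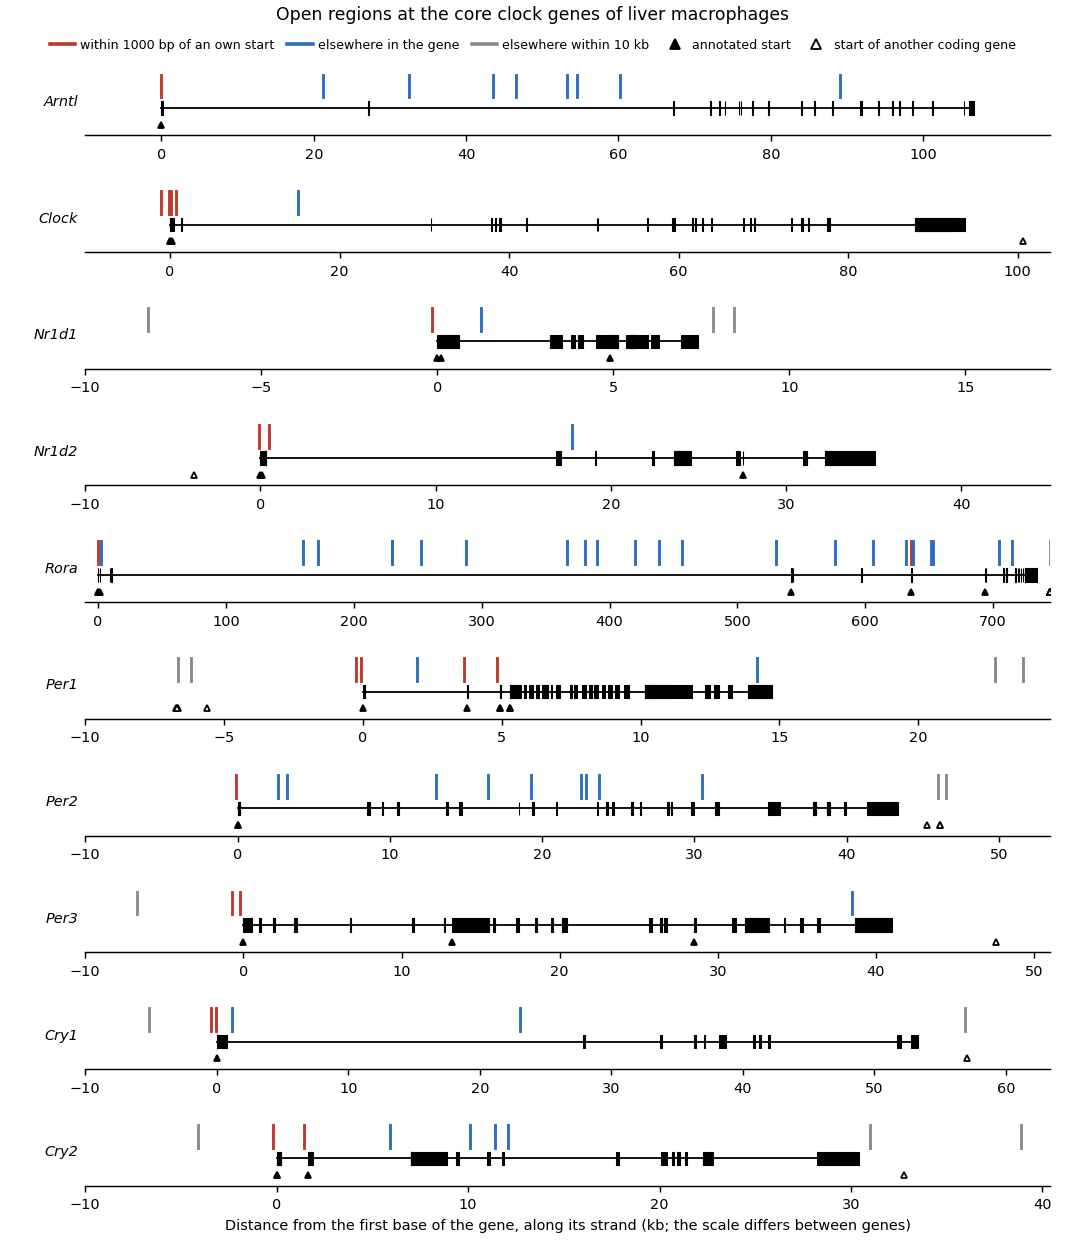
Open regions (colored ticks) along the 10 clock genes, with the distance in kb from the first base of the gene along its strand on the horizontal axis, a separate scale for each gene, exons as black boxes, and annotated starts as triangles. Regions within 1000 bp of a start of the gene are red, others in the gene are blue, and others within 10 kb are gray. Each gene has a red tick at its start. The blue ticks crowd in intron 2 of *Arntl* and are spread along *Rora*, with a gap of 157905 bp near its start.

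By their midpoints, 55 of the 88 regions lay in introns (62.5%), 3 in exons (3.41%), 20 upstream, and 10 downstream. At least 1 exonic base of the gene was held by 9 regions. By midpoint, the exonic share in the 10 sets of similar genes ran from 4.52% (genes as long as *Rora*) to 15.2% (as long as *Per1*). *Rora* accounted for 22 of the intronic regions, and without it 33 of 63 regions were intronic. Intron 1 held 25 regions, of which 14 were in *Rora*. For 72 regions the nearest coding start belonged to the clock gene, and for 16 to a neighbor. Regions within 1000 bp of the start of a neighbor were found for *Per1* with *Vamp2*, *Per2* with *Hes6*, *Cry1* with *Mterfd3*, and *Rora* with *Narg2*, and numbered 6. The start of *Tmem165*, in the window of *Clock*, had none. Beside genes of similar length, the intronic share was larger at some clock genes and smaller at others. It was 9 of 12 at *Per2* against 45.3% of the regions of similar genes, 5 of 9 at *Cry2* against 37.3%, 8 of 9 at *Arntl* against 64.2%, 2 of 3 at *Nr1d2* against 40.2%, 3 of 10 at *Per1* against 23.7%, and 1 of 5 at *Nr1d1* against 12.1%. It was 2 of 5 at *Clock* against 62.1%, 1 of 4 at *Per3* against 44.0%, and 2 of 6 at *Cry1* against 50.3%. At *Rora*, 22 of 25 were intronic, against 88.7%.

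At the starts the 10 genes were alike. The first base of the gene had an open region within 1000 bp in all 10, and in 53.5% of all protein-coding genes. In each gene the midpoint of the region nearest to the first base lay upstream, between −195 bp (*Per3*) and −64 bp (*Per1*). This position was not counted over all protein-coding genes, so it is not shown to be particular to the clock genes. When the region had to be at least 200 bp wide, 6 of the 10 genes had an open start, and 34.8% of all protein-coding genes did. *Arntl*, *Per1*, *Per3*, and *Cry2* did not. The start of *Per1* was nonetheless covered by a pair of regions, of 186 and 151 bp, and the region of *Arntl*, of 197 bp, was only just below this limit. An open start adds at least 1 region to the count of a gene. Among genes as long as *Per2*, those with an open start had a median of 4 regions, against 3 for all of them. The counts were therefore also compared within the 12765 protein-coding genes that had an open start and others of similar length. More regions than 75% of these were found at *Per1* (98%), *Per2* (96.0%), *Cry2* (91.6%), and *Rora* (87.1%), or 4 of 10, and at 20.9% of all genes with an open start. *Arntl* (70.2%) and *Nr1d1* (67.8%) fell below this line, as did *Cry1* (66.1%). *Clock* (41.3%) and *Per3* (44.4%) had as many regions as the median of these genes, 5 and 4, and *Nr1d2* (29.1%), with 3 against 4, had fewer.

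**Figure D3:**
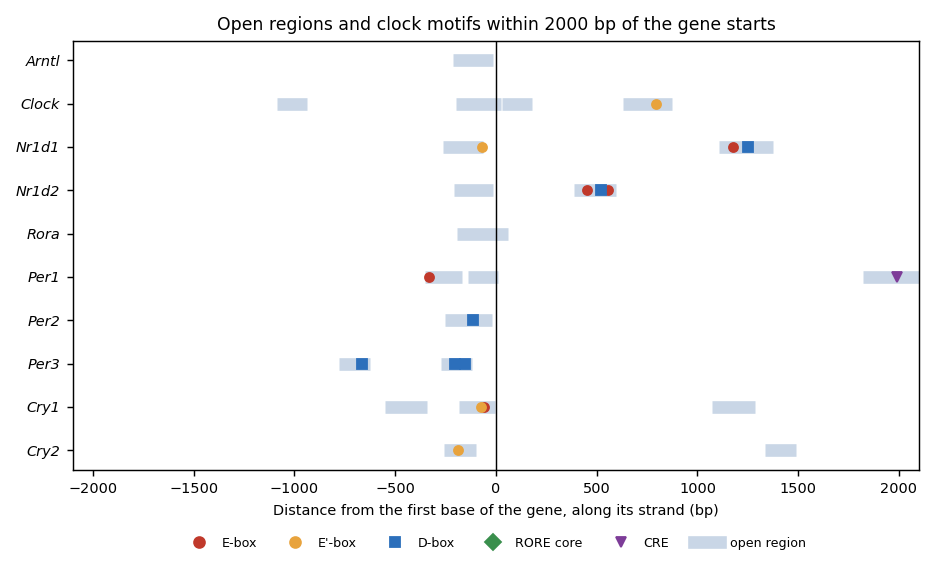
Open regions (gray-blue bars) within 2000 bp of the first base of each clock gene (vertical line), with the distance in bp along the strand of the gene, and clock motifs inside them as symbols. The nearest bar of each gene has its midpoint upstream of the line, and the E-box with a D-box can be seen downstream in *Nr1d1* and *Nr1d2*; no RORE core falls in this range.

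Width is the only other measure that the list gives. The regions of the clock genes had a median width of 175 bp and a mean of 188.5 bp ± 40.3 (SD over 88 regions), from 151 to 286 bp. The median of all regions was 160 bp. The commonest width, 151 bp, was that of 34 of the 88 (38.6%) and of 46.5% of all regions. Only 0.0029% of all regions were narrower, so 151 bp is close to the smallest width in the list. A median of 151 bp therefore cannot be told from this floor. The 21 regions within 1000 bp of a start of their own gene had a median of 186 bp, and the other 67 a median of 169 bp. For all regions the medians were 189 bp near a coding start and 151 bp elsewhere. The 61 regions of the clock genes that were far from every coding start had a median of 168 bp, and 44.3% of them were 151 bp wide, against 53.5% of all such regions. Beside the regions of genes of similar length, the median was larger at 7 of the clock genes and smaller at 3. These were *Per1* (162.5 against 176 bp), *Per3* (151 against 169 bp), and *Cry2* (162 against 172 bp). At *Rora* the median of similar genes was 151 bp, so its own median, 165 bp, had almost no room to be smaller. The share of all protein-coding genes with a larger median than similar genes was not taken. Between genes the median ranged from 151 bp at *Per3* to 221 bp at *Clock*.

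**Figure D4:**
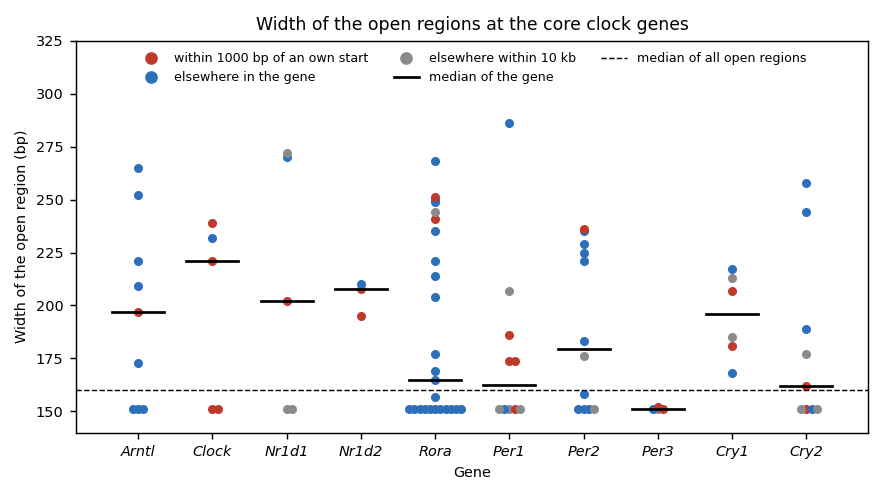
Width in bp of each of the 88 open regions (vertical axis, starting above 0) by clock gene, with the median of the gene as a black bar and the median of all regions, 160 bp, as a dashed line. Points at 151 bp are drawn side by side; *Per3* has all of its points at 151 or 152 bp, and *Nr1d2* and *Cry1* have none at 151 bp.

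Base composition was read in 300 bp around each midpoint. The 27 regions of the clock genes within 1000 bp of a coding start had a median GC content of 65.7%, and all regions near coding starts had 61.3%. The other 61 had 51.3%, against 50.0% for all regions far from starts. The ratio of observed to expected CpG, which is high in CpG islands, had a median of 0.823 in these 27 regions and 0.705 in all regions near starts. A ratio of at least 0.6 was found in 20 of the 27 (74.1%) and in 61.2% of all regions near coding starts. Far from coding starts, 3 of 61 regions of the clock genes had this ratio (4.92%), a share close to the 4.57% of all such regions. These 3 lay in intron 1 of *Nr1d1*, 1759 bp downstream of the start of *Rora*-002, and downstream of *Per1*.

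The regions were then searched, on both strands and in the same 300 bp, for motifs that clock proteins are known to bind. To the motifs above were added the RevDR2, a direct repeat of AGGTCA with 2 bases between the repeats that REV-ERBs bind, and the CRE (TGACGTCA), through which CREB acts on *Per1*. Since the RevDR2 and the RORE core both contain AGGTCA, a RevDR2 can hold a RORE core. At least 1 of the 6 motifs was found in 26 of the 88 regions (29.5%) and in 19.7% of the 69362 regions searched. The E-box was in 11 (12.5%) and in 8.43% of all regions, the E′-box in 8 (9.09%) and 5.05%, and the D-box in 6 (6.82%) and 2.67%. The RORE core was in 3 (3.41%) and 3.70%, the CRE in 2 (2.27%) and 1.40%, and the RevDR2 in 0 and 0.0533%. The 95% Wilson intervals, which cover counting error only, ran from 7.13% to 21.0% for the E-box, from 4.68% to 16.9% for the E′-box, and from 3.16% to 14.1% for the D-box. The shares over all regions lay inside the intervals of the E-box and the E′-box and below that of the D-box. These intervals treat the 88 regions as independent draws, although the regions come from 10 genes chosen by name. They therefore do not test whether the motifs are more common at clock genes. The share of the RORE core, with an interval from 1.17% to 9.55%, was close to that of all regions. A match is a description of the letters, and binding was not measured.

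The shares were then taken near starts and away from them. Of the 27 regions within 1000 bp of any coding start, 12 (44.4%) held a clock motif, against 20.5% of all such regions. The D-box was in 4 of the 27 (14.8%) and in 1.3% of all regions near starts. Those with a D-box included the regions of *Per3* at −701 and −195 bp, which lie 505 bp apart at the same start. The E-box and the E′-box were each in 5 (18.5%), against 10.1% and 5.87%. Those with an E-box included the regions of *Per1* at −261, −64, and 3647 bp. The regions at −261 and −64 bp shared an E-box at −147 bp, and the region at −64 bp was counted only through it. Those with an E′-box included the region at the start of *Narg2*, in the window of *Rora*. No RORE core was found in these 27, and 2.22% of all regions near starts held it. Farther from starts, 14 of 61 regions (23.0%) held a clock motif, against 19.3%, so the shares were closer there. Each of the 27 regions makes up 3.70% of them, so these shares rest on few regions.

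**Figure D5:**
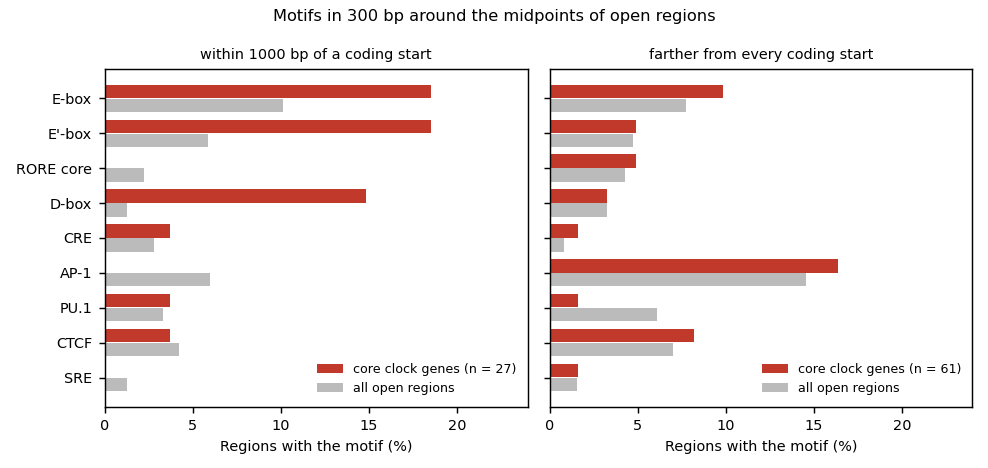
Percent of open regions with each motif in 300 bp around the midpoint, for the regions of the clock genes (red) and all open regions (gray), near coding starts on the left (27 regions of the clock genes) and farther away on the right (61). The red bars for the E-box (5 regions), E′-box (5), and D-box (4) exceed the gray ones on the left, with 14.8% against 1.3% for the D-box, and the bars are of more similar length on the right.

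The motifs fell differently over the loop. Of the activators, *Arntl* had no clock motif with the letters searched at its start. Variants of the RORE core with other letters were not searched. *Arntl* had 1 RORE core at chr7:120394464-120394470 in the largest of its intronic regions, 43488 bp from the start. *Clock* had 1 E′-box, at 795 bp. Among the receptors, *Nr1d1* had an E′-box at −69 bp, an E-box at 1176 bp and a D-box at 1249 bp, and another E-box in its upstream region at −8211 bp. *Nr1d2* had E-boxes at 451 and 554 bp and a D-box at 520 bp, all in the region printed above, and another E-box at 599 bp just outside it. In *Rora* the start region held none of the motifs, and a D-box (2534 bp), an E-box (230044 bp), and an E′-box (252878 bp) were in intronic regions. Just outside other intronic regions of *Rora*, within the 300 bp, were an E-box (576251 bp), an E′-box (605725 bp), and the RORE core of the last of the 3 regions counted (714703 bp). The CRE and E′-box in the last region of *Rora* belong to the start of *Narg2*.

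Of the repressors, *Per1* had E-boxes at −331 bp and at 3568 bp, another at −147 bp in the gap between its first pair of regions, and another at 23870 bp beside the last region of its window. The CRE of *Per1* was at 1988 bp, in the intronic region of 286 bp. *Per2* had a D-box at −115 bp, and *Per3* had D-boxes at −666, −201, and −154 bp and an E′-box at 38592 bp beside its last region. In the regions of *Per2* and at the start of *Per3* neither the E-box nor the E′-box was found with these letters. *Cry1* had an E′-box at −76 bp and an E-box at −57 bp. The RORE cores of *Cry1* lay at 23087 and 23138 bp, at chr10:84624709-84624715 and chr10:84624658-84624664, in opposite orientations. *Cry2* had an E′-box at −189 bp, and its pair of E-boxes at 10120 and 10173 bp.

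Motifs that are not part of the clock were searched in the same windows. AP-1 (TGANTCA) was in 10 of the 88 regions (11.4%) and in 12.1% of all regions. All 10 were among the 61 far from starts (16.4% of these). Over all regions, AP-1 was also more common far from starts, with 14.6% against 5.96% near them. PU.1 (GAGGAAGT), the motif of a factor that defines macrophages, was in 2 (2.27%) and in 5.29% of all regions. CTCF was in 6 (6.82%) and 6.21%, and the SRE (TCACNCCAC), which SREBPs bind, in 1 (1.14%) and 1.47%. The PU.1 matches were at −16 bp in *Nr1d2* and 11503 bp in *Cry2*, and the SRE match was in intron 2 of *Arntl*, at 60305 bp.

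The same counts were made for 20 other genes of the clock (kinases, output factors, and relatives of the 10 genes). All 20 had an open start, as did 57% of all protein-coding genes. More regions than 75% of similar genes were found at 11 of the 20, and at 20.6% of all protein-coding genes. The median share was 81.7%, against 78.2% for the core genes and 40.2% for all protein-coding genes. The highest was *Usp2*, a deubiquitinase with 11 regions, at 97.9%. The relatives of the core genes were spread widely. *Npas2*, which can replace *Clock*, had 8 regions (63.9%) and *Arntl2*, the paralog of *Arntl*, had 1 (12.5%). *Rorb*, a relative of *Rora* which is known mainly from neural tissue, had 1 in 180592 bp (12.1%), the lowest of the 20.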

How the data were processed

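Fast-ATAC-Seq was performed by the authors on isolated LMs. They used the Kundaje laboratory pipeline, trimmed adapters, aligned to mm9 with Bowtie, merged replicates, and called peaks; HOMER is named for read counts. The peak caller, its threshold, and how peaks of different groups were combined are not given in the sources used here. The deposited list holds region positions in bp (starts counted from 0, given here from 1) and no other value, so depth and precision are unknown. Because replicates were merged first, some regions may be closed in part of the libraries.

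Here, regions were placed on GENCODE vM1 genes of NCBIM37 by midpoint. Distances run from that midpoint to the first base of the gene, along its strand. Genes of similar length were the other protein-coding genes that were at most 20% shorter or 25% longer. No test over samples was possible, so counts and shares are descriptions. Named were all 10 genes, for each the region nearest to the start, the widest, and those near starts with a clock motif, neighbors whose start lies in the window, and, of 20 other clock genes, the relatives (of which 1 is not reported here) and the extremes. Members and lists were chosen with earlier results of these data known. Markers and clock genes that the annotation lacks by name were matched by older symbols. The steps were tested on simulated data, with Python 3.11.15, NumPy 2.4.6, SciPy 1.17.1, pysam 0.24.0, and matplotlib 3.10.9.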

Additional observations from a re-analysis of the deposited data

How the results depend on the processing

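No paired analysis was possible because there is no value for any library in the list, and for the same reason no replicate could be left out. Without flanks the 10 genes held 58 regions, and with regions of at least 200 bp alone 34, in place of 88. The count was 79 with flanks of 5 kb, 108 with 20 kb, and 75 after joining regions that lay within 500 bp of each other. Open starts fell from 10 to 6 genes with regions of at least 200 bp. The number of genes above 75% of similar genes, 6, was 4 to 7 under the alternatives. Of single genes, *Nr1d1* fell to 54.7% without flanks, and with regions of at least 200 bp *Per1* fell to 68.8% and *Cry2* to 66.7%, while *Cry1* reached 83.0% and *Clock* 76.9%. In motif shares, the difference from all regions was −3.59 percentage points for CTCF in the open region alone, against 0.61 in 300 bp, and −0.069 points for the RevDR2 in 500 bp. The cause was not tested. Of 201 alternatives, 169 kept a value within its limit. For the share of similar genes, this limit was only the side of 75% on which a gene lay. *Per3* thus counted as unmoved, although its share went from 55.0% to 0% with regions of at least 200 bp. Depth limits every count, since a weakly open region may be missing from the list.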

Other observations

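Some motifs stood together in the regions of the clock genes, and their shares over all regions were taken after these were seen. An E-box with a D-box in the same 300 bp was found in 2 of the 88 regions, those in intron 1 of *Nr1d1* and of *Nr1d2*, and in 131 of the 69362 regions searched (0.189%). At least 2 D-boxes were found in 1 region, upstream of *Per3*, and in 46 of all regions (0.0663%). At least 2 RORE cores were found in 1 region, in intron 1 of *Cry1*, and in 68 of all regions (0.098%). An E-box with an E′-box was found in 1 region, upstream of *Cry1*, and in 326 of all regions (0.47%). At least 2 E-boxes were found in 3 regions (3.41%) and in 408 of all regions (0.588%). These 3 lay in intron 1 of *Nr1d2*, upstream of *Per1*, and in intron 3 of *Cry2*.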
